A study of Mus musculus with 18 samples.

Results

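Macrophages carrying the T169A change in Ripk1 were compared with B6 macrophages after 2 hours of lipopolysaccharide (LPS, a bacterial cell wall component that is sensed by the receptor TLR4). The comparison used 6 of the 18 libraries of the study, namely T169A libraries 11, 14 and 17 against B6 libraries 2, 5 and 8, and was read on autosomal genes, of which 12411 were tested out of 13068 genes in all. The cells were bone marrow-derived macrophages (BMDMs), grown for 7 days in RPMI with 20% serum and 30% L929 supernatant, which supplies the growth factor M-CSF. The T169A mice are knock-ins whose RIPK1 has alanine in place of threonine at that residue, the B6 mice are C57BL/6J, and both groups received the same LPS stimulus with no other agent. The other 12 libraries, unstimulated or with LPS/5z7 for 2 hours, entered the fit and are given below as side-by-side values. The labels spell out neither 5z7 nor an age or sex of the mice, and they do not say whether the 3 libraries of a group are 3 mice, so p-values here cover only the spread among the libraries at hand, which may be technical.

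RIPK1 is a kinase that sits in the complexes formed by TNF receptors and Toll-like receptors. As a scaffold it passes signals to the kinases TAK1 and IKK, and through them to NF-kB and the MAP kinases. As an active kinase it can start cell death, by apoptosis through caspase-8 or by necroptosis through RIPK3 and MLKL. Phosphorylation of RIPK1 by kinases of the survival pathway is known to hold this killing activity in check. In macrophages LPS acts through TLR4 directly and through the TNF that the cells then secrete.

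The 6 LPS libraries held 15466988 to 30425934 counts, and a floor of 3 counts corresponded to 0.118 to 0.233 CPM (counts relative to the library total after TMM scaling, the unit of all levels below). All 31 macrophage lineage genes were detected and tested in both groups, with Lyz2, the lysozyme gene, at 30648 ± 2830 CPM in T169A and 28592 ± 3323 CPM in B6 (SD, n = 3 each, as for all such values). Of 66 tested markers of 9 other cell types none was called, where 0.177% of all autosomal genes were, and the summed levels of each of these lists overlapped between the groups. The 11 tested fibroblast and stromal markers among them all had a fold change above 0, with 7 at an unadjusted p under 0.05, and are described with Thbs2. The 2 groups differed in sex-linked transcripts. Xist, the RNA of the inactive X chromosome, had 0 to 1.06 CPM in T169A LPS libraries, against 840 to 1337 CPM in B6 LPS libraries. The Y-linked gene Ddx3y had 79.0 to 115 CPM in T169A and 0 to 0.04 CPM in B6. Genotype and the sex-linked difference therefore cannot be told apart in any comparison below, and X and Y genes were left out of the counts.

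Ripk1 RNA itself had 94.8, 76.7 and 67.6 CPM in T169A libraries 11, 14 and 17, against 90.9, 85.9 and 80.7 CPM in B6 libraries 2, 5 and 8. The groups overlapped, with a log2 fold change (T169A over B6, as for every fold change between genotypes here) of -0.11 ± 0.12 (SE) and a 95% interval of -0.37 to 0.16. Gene counts do not show which residue the RNA encodes, so they do not check the allele.

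T169A and B6 macrophages had closely similar autosomal transcriptomes after LPS. At an adjusted p under 0.05 (edgeR quasi-likelihood test, Benjamini-Hochberg adjustment over all genes tested), 22 autosomal genes were called, which is 0.177% of those tested. T169A was higher for 6 of them (0.0483%) and lower for 16 (0.129%). By comparison, LPS itself changed 7738 autosomal genes in T169A cells (62.3%, with 30.7% raised and 31.6% lowered) and 7880 in B6 cells (63.5%, with 29.9% raised and 33.6% lowered). The lower genes with the smallest adjusted p were Gdf3, Cx3cr1, Wdfy1, Mtus2, Plxdc2, Axl and Marco, and Mtus2, with few counts, had the largest fitted fold change. Col18a1, Tgfbi, Slc7a2, Cyp51 and H2-M2 were also lower. The 3 libraries of one genotype lay entirely on one side of the other for all 22 genes, against 10.4% of autosomal genes tested (1290, of which 645 were higher and 645 lower in T169A). The 22 genes were called from these same libraries, so their lack of overlap is no separate support for the calls. Without adjustment 686 autosomal genes (5.53%) had a p under 0.05. The count was 7 when the 6 LPS libraries were fitted alone, and 10 to 24 with a single library left out, falling to 11, 13, 12 and 10 without T169A library 14, T169A library 17, B6 library 2 or B6 library 5. Slc7a2, Gm5345, Cyp51, Gm15446, Gm43305, Thbs2, Lrmda, F11r, Gpr146, Eya1, Vill and H2-M2 each lost their call in at least 3 of these 6 fits, while the other 10 genes were called in all 6.

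**Figure D1:**
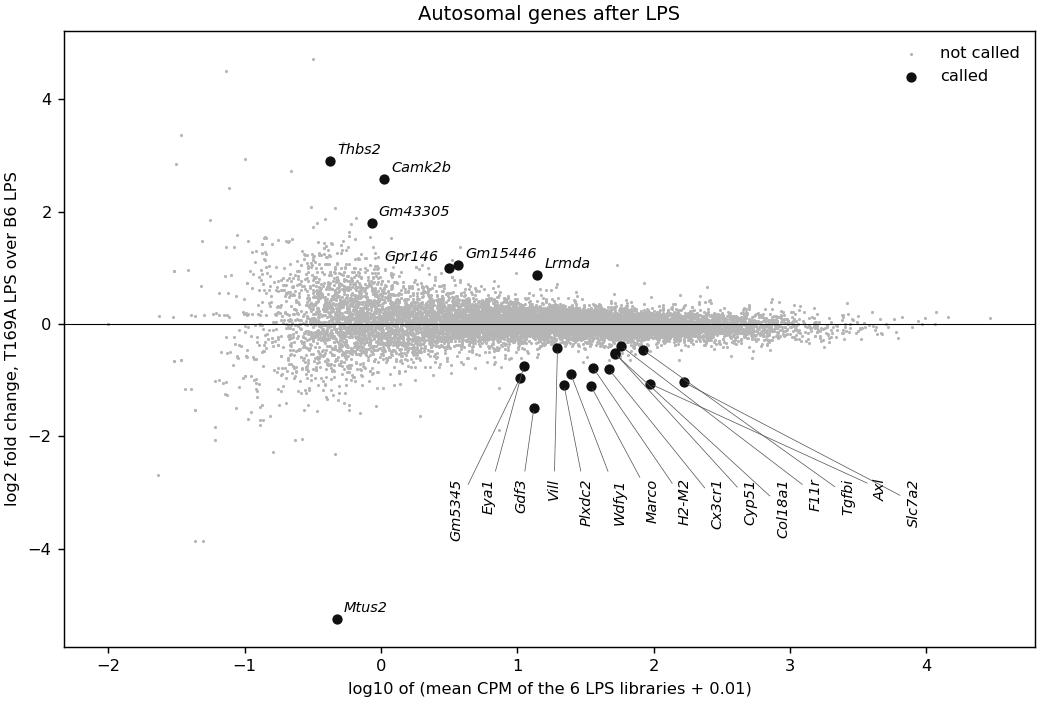
Each point is an autosomal gene. The horizontal axis is the log10 of its mean CPM over the 6 LPS libraries plus 0.01, and the vertical axis its log2 fold change, T169A over B6. The 22 called genes are black and named, 16 below the line at 0 and 6 above it.

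The precision limits what else could have been seen. The median SE of the log2 fold change was 0.16 over autosomal genes, and 0.12 over the 7406 with a mean of at least 10 CPM in either group. The 95% interval lay within 2-fold either way for 10397 of 12411 genes (83.8%), and for 7336 of the 7406 (99.1%). Only 8 of these 7406 genes had a fitted change of over 2-fold.

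The ligand and matrix genes were the first group of lower genes. Gdf3, which encodes growth differentiation factor 3, a secreted ligand of the TGF-beta family, had 5.84, 7.53 and 7.50 CPM in T169A libraries 11, 14 and 17, against 17.2, 20.4 and 20.8 CPM in B6 libraries 2, 5 and 8. The T169A level was 35.7% of the B6 level, and the log2 fold change of -1.49 ± 0.11 had the smallest adjusted p among autosomal genes (4.9e-07). Tgfbi, a secreted matrix protein induced by TGF-beta, had 70.0, 72.2 and 68.1 CPM in T169A and 101.5, 90.7 and 96.6 CPM in B6. Its fall was smaller, at -0.46 ± 0.07 (adjusted p = 0.00435). Col18a1, the basement membrane collagen from which endostatin is cut, stood at 42.7 ± 1.78 CPM in T169A and 61.9 ± 3.23 CPM in B6 (-0.54 ± 0.08, adjusted p = 0.00307). Plxdc2, a transmembrane protein with a plexin-like domain, stood at 14.1 ± 0.958 CPM in T169A and 29.9 ± 3.85 CPM in B6 (-1.09 ± 0.12, adjusted p = 8.64e-05).

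These 4 were the only called members of a list of TGF-beta family, matrix and matrix receptor genes, of which 50 were tested, where 0.177% of all autosomal genes were called. The list was drawn up with earlier results of these data known, so its share of calls is no evidence about the family. An unadjusted p under 0.05 was reached by 12 of the 50, and the groups did not overlap for 5 that were higher and 8 that were lower in T169A, against 5.2% of all autosomal genes each way. No member was called higher, 24 had a fold change above 0 and 26 below, and the median of -0.02 was close to that of all autosomal genes (0.00). The abundant members Spp1 (osteopontin) and Cd44 (the hyaluronan receptor) were not called, with log2 fold changes of 0.00 ± 0.09 and -0.16 ± 0.17.

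Receptors of the macrophage surface made up the second group. Axl, a receptor tyrosine kinase that binds Gas6 on dying cells and is known to dampen inflammatory signalling, had 69.8, 56.9 and 56.5 CPM in T169A libraries, against 136, 125 and 123 CPM in B6 libraries. Marco, a scavenger receptor for bacteria and particles, had 22.4, 21.3 and 22.5 CPM in T169A and 46.8, 49.3 and 45.7 CPM in B6. Both receptors were at slightly under 50% of the B6 level (47.7% for Axl and 46.6% for Marco), far beyond the spread between libraries. Their log2 fold changes were -1.07 ± 0.13 (adjusted p = 0.00046) and -1.10 ± 0.14 (adjusted p = 0.000695). Cx3cr1, the receptor of the chemokine fractalkine, had 34.9, 33.3 and 34.4 CPM in T169A and 61.1, 61.6 and 56.4 CPM in B6 (-0.81 ± 0.09, adjusted p = 8.07e-05).

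No other listed gene of these families was called in the main fit, where 0.177% of all autosomal genes were called. Both lists were drawn up with earlier results of these data known. Of 37 apoptotic cell and scavenger receptor genes tested, Axl and Marco were lower and none was higher, and the median log2 fold change was 0.02. An unadjusted p under 0.05 was reached by 5 of the 37, against 5.53% of all autosomal genes. The complement gene C1qb and the integrin gene Itgav, the most abundant members not called, had 0.17 ± 0.20 and -0.23 ± 0.20. Of 18 chemokine and chemoattractant receptor genes tested, Cx3cr1 was the one called, and C5ar1 and C3ar1, receptors of complement fragments, had 0.05 ± 0.12 and -0.05 ± 0.12. The groups did not overlap for 1 of the 18 that was higher and 3 that were lower in T169A, against 5.2% of all autosomal genes each way. Colec12, another scavenger receptor, just missed the threshold at 45.6 ± 5.59 CPM in T169A and 67.6 ± 8.74 CPM in B6 (-0.57 ± 0.12, adjusted p = 0.0779). With a term for depth class, described below, Colec12 and the chemoattractant receptor gene Fpr1 were called lower (edgeR adjusted p = 0.00153 and 0.0429).

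**Figure D2:**
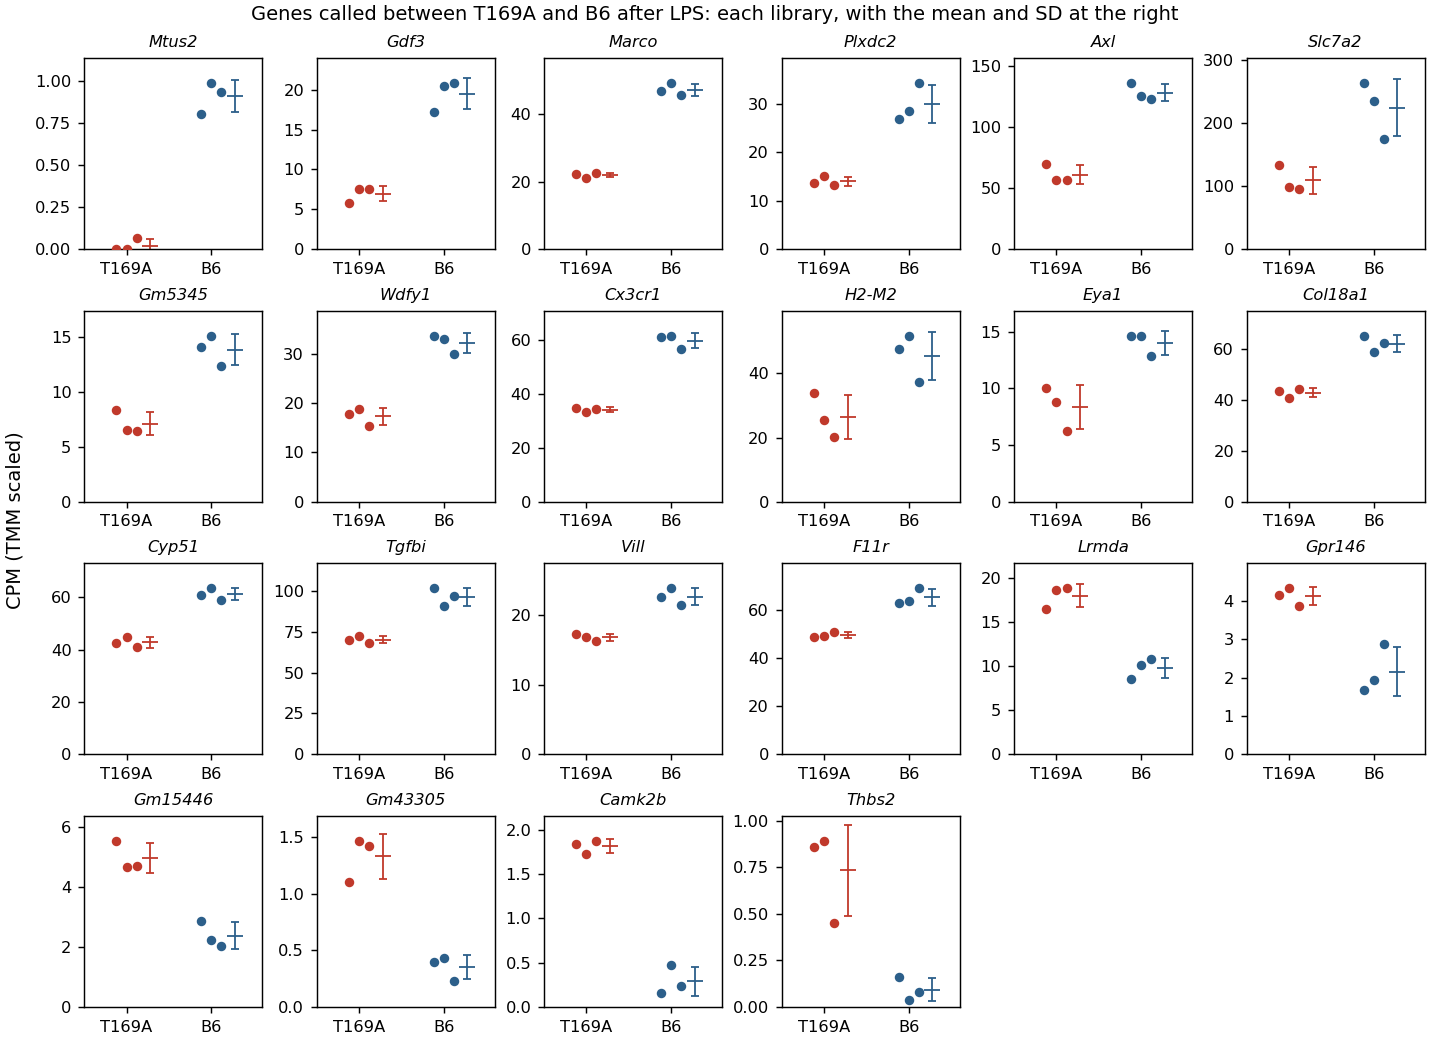
CPM of the 22 called genes in each LPS library, T169A (red) left of B6 (blue), with the mean and SD beside the points and every axis starting at 0. In all 22 panels the 3 T169A points lie on one side of the 3 B6 points, as for Gdf3, at 5.84 to 7.53 CPM in T169A and 17.2 to 20.8 CPM in B6.

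Metabolic genes formed a further group. Slc7a2, the cationic amino acid transporter that brings arginine into activated macrophages, had 134, 98.2 and 95.1 CPM in T169A libraries 11, 14 and 17, against 263, 235 and 174 CPM in B6 libraries 2, 5 and 8 (-1.04 ± 0.17, adjusted p = 0.00868). It is a gene that LPS raised strongly, by 4.96 on the log2 scale in T169A and 5.61 in B6. The groups did not overlap, but the deepest libraries, 11 in T169A and 2 and 5 in B6, held the highest values of their groups. Gm5345, annotated as a processed pseudogene on the same chromosome 8, had 7.11 ± 1.07 CPM in T169A and 13.9 ± 1.40 CPM in B6 (-0.96 ± 0.17, adjusted p = 0.0158). How reads that match several genes were counted is not given in the sources used here, so pseudogene counts are uncertain.

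Cyp51, the lanosterol demethylase of cholesterol synthesis, had 42.4, 45.0 and 41.0 CPM in T169A and 60.9, 63.5 and 59.0 CPM in B6 (-0.52 ± 0.09, adjusted p = 0.0111). It was the one called member of 30 tested genes of cholesterol synthesis and LXR targets, where 0.177% of all autosomal genes were called. This list too was drawn up with earlier results of these data known. Of these 30 genes 25 had a fold change below 0, and their median was -0.21, while 6158 of all 12411 autosomal genes were below 0. All 3 T169A libraries lay below all 3 B6 libraries for 14 of the 30, against 5.2% of all autosomal genes. The 14 include Srebf2, the transcription factor that drives the pathway, with 214, 227 and 220 CPM in T169A and 266.5, 257 and 275 CPM in B6. They also include Sc5d, a desaturase of the late pathway, with 31.0, 30.2 and 29.4 CPM in T169A and 39.2, 36.1 and 41.1 CPM in B6. Neither gene passed the test, with log2 fold changes of -0.28 ± 0.10 for Srebf2 (adjusted p = 0.678) and -0.36 ± 0.08 for Sc5d (adjusted p = 0.123). The LXR targets Apoe, a lipid carrier, and Abca1, a cholesterol exporter, were the most abundant members and had log2 fold changes of 0.22 ± 0.17 and -0.12 ± 0.28.

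**Figure D3:**
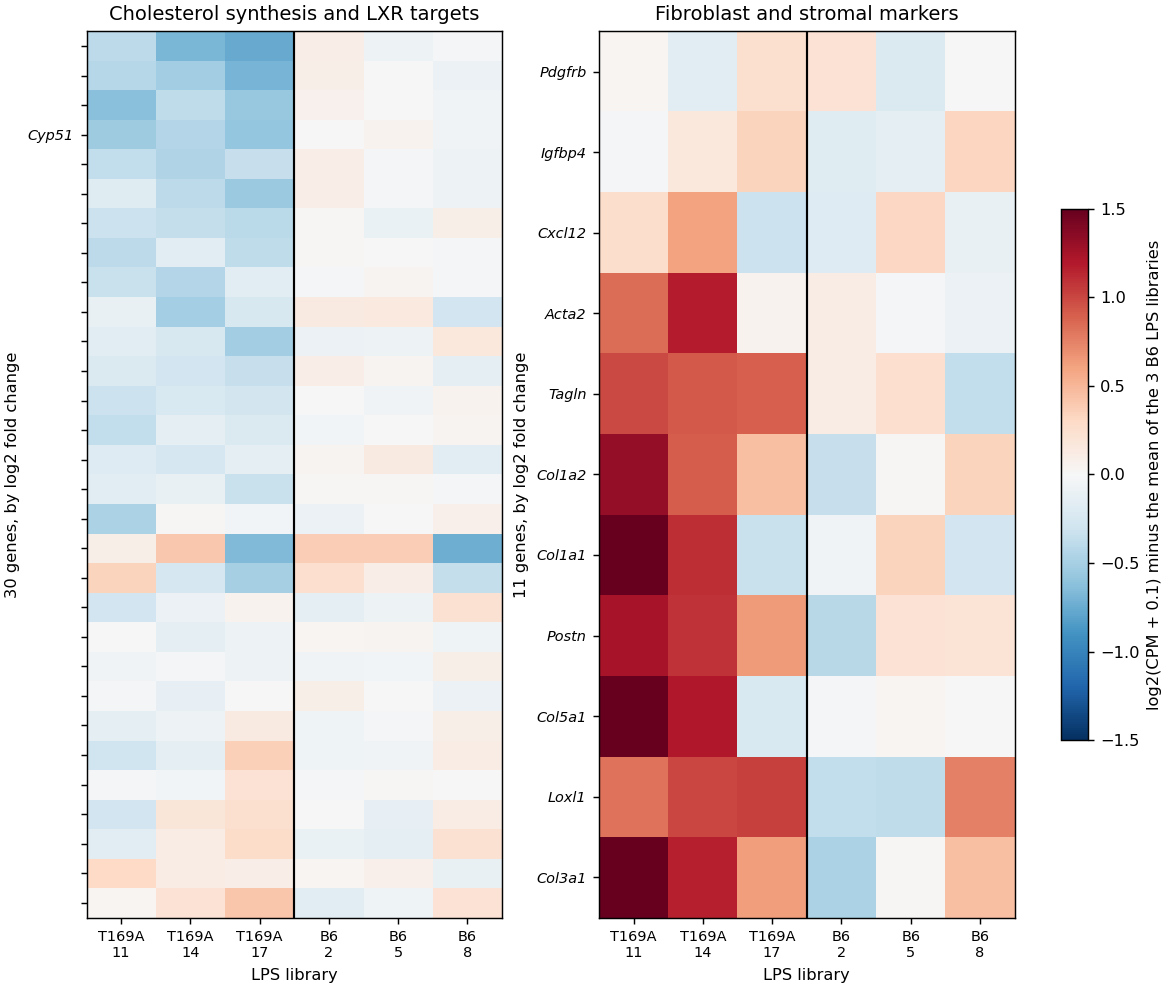
Each cell gives log2(CPM + 0.1) of a gene in an LPS library minus the mean of the 3 B6 LPS libraries, T169A libraries left of B6 libraries, for the cholesterol list (left, rows in order of fold change, with Cyp51 named) and the fibroblast and stromal markers (right). In the left panel 25 of 30 genes had a fitted fold change below 0, and in the right panel all 11 were above 0; 1 gene of the left panel, Cyp51, was called.

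The promoters of Marco, Axl and Cyp51 are shown as examples of lower genes of 3 different functions. The sequences are RefSeq windows from 250 bases before to 50 after the start, on GRCm38.p6 and in the direction of the gene, all on the minus strand. Capitals mark, on either strand, the core bound by the macrophage factor PU.1 (GAGGAA) in Marco and the GC box (GGGCGG) in Axl and Cyp51. Other matches are unmarked: the Axl window also holds 1 PU.1 core, and all 3 windows match the loose kappaB pattern described below.
Marco (chr1:120504975-120505274): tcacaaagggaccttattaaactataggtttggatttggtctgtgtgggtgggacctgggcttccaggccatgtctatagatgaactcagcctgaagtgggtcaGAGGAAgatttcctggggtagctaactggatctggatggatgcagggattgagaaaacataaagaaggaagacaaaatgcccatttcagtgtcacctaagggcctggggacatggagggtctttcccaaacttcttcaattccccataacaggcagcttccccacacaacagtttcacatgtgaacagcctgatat
Axl (chr7:25788684-25788983): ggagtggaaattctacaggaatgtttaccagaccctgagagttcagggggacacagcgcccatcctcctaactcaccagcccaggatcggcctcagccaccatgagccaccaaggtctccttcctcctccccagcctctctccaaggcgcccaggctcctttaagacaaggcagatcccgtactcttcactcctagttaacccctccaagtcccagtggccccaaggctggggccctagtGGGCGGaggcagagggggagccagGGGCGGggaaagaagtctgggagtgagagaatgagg
Cyp51 (chr5:4104648-4104947): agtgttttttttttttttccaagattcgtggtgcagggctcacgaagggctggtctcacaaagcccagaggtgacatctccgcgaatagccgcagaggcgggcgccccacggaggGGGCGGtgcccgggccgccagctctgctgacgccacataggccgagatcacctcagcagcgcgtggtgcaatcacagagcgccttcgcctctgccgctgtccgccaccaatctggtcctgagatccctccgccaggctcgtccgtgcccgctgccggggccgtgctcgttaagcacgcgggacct
Of the 22 called genes 16 had a window in the table. The PU.1 core was present in 6 of the 16, against 28.3% of all 27025 promoters, and the GC box in 7 of the 16, against 35.9%. A loose kappaB pattern, with any base allowed at all of its middle positions, was present in 12 of the 16, against 50.4%. A match to so loose a pattern does not show a site for NF-kB. The other 5 motifs searched (ISRE, AP-1, CRE, SRE and TATA) were each in at most 2 of the 16. All were searched on both strands. These counts describe letters in the windows and carry no test.

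The remaining lower genes have diverse roles. Wdfy1, an endosomal protein described as an adaptor in Toll-like receptor signalling, had 17.7, 18.8 and 15.4 CPM in T169A and 33.7, 33.0 and 29.9 CPM in B6 (-0.90 ± 0.10, adjusted p = 8.07e-05). It had been placed on a list of genes that can differ between C57BL/6 substrains; of the other tested members of that list, Cyfip2 and Ide had log2 fold changes of -0.11 ± 0.16 and -0.07 ± 0.14, and Nnt had too few counts to be tested. Whether a substrain difference takes part was not tested. Mtus2, a microtubule-associated protein, had 1 count in the 3 T169A LPS libraries together and 57 counts in the 3 B6 LPS libraries, a ratio of 0.02 with an exact 95% counting interval of 0.000498 to 0.116. H2-M2, a non-classical MHC class I gene, had 33.8, 25.5 and 20.2 CPM in T169A and 47.6, 51.8 and 37.2 CPM in B6 (-0.78 ± 0.15, adjusted p = 0.0448). It was the one called among 24 antigen presentation genes tested, where 0.177% of all autosomal genes were called. The classical H2-D1 had 0.06 ± 0.10.

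F11r and Vill had the smallest fold changes of the called genes, and Eya1 a larger one. F11r, the junctional adhesion molecule A, stood at 49.8 ± 1.10 CPM in T169A and 65.4 ± 3.40 CPM in B6 (-0.39 ± 0.07, adjusted p = 0.0218). Vill, a villin-like actin-binding protein, stood at 16.8 ± 0.53 and 22.6 ± 1.195 CPM in T169A and B6 (-0.43 ± 0.08, adjusted p = 0.0366). Eya1, a phosphatase that also acts as a transcriptional coactivator, stood at 8.34 ± 1.94 CPM in T169A and 14.0 ± 1.04 CPM in B6 (-0.74 ± 0.14, adjusted p = 0.0357).

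The 6 genes higher in T169A were mostly weakly expressed. Camk2b, the beta subunit of calcium/calmodulin-dependent kinase II, had 1.84, 1.72 and 1.88 CPM in T169A and 0.16, 0.473 and 0.233 CPM in B6 (2.58 ± 0.32, adjusted p = 0.00046). Lrmda, named for a role in melanocyte differentiation, was the most strongly expressed of the 6, at 16.6, 18.6 and 18.9 CPM in T169A and 8.60, 10.2 and 10.8 CPM in B6 (0.88 ± 0.16, adjusted p = 0.0214). Gpr146, a G protein-coupled receptor linked to plasma cholesterol in mice, had 4.17, 4.34 and 3.88 CPM in T169A and 1.68, 1.93 and 2.88 CPM in B6 (0.999 ± 0.191, adjusted p = 0.0353). Gm15446, a protein-coding gene with no role given here, stood at 4.98 ± 0.501 CPM in T169A and 2.38 ± 0.446 CPM in B6. Gm43305, a processed transcript, stood at 1.33 ± 0.199 and 0.356 ± 0.107 CPM in T169A and B6.

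Thbs2, the matrix glycoprotein thrombospondin 2 that stromal cells typically make, had 0.858, 0.894 and 0.453 CPM in T169A libraries 11, 14 and 17, against 0.16, 0.0394 and 0.0777 CPM in B6 libraries 2, 5 and 8 (2.90 ± 0.53, adjusted p = 0.0214). These are 42 counts in T169A and 6 in B6, a ratio of 7.99 with an exact counting interval of 3.38 to 22.99. All 11 tested fibroblast and stromal markers had a fold change above 0, with a median of 0.99. None was called, where 0.177% of all autosomal genes were. The groups did not overlap for 5 of the 11 that were higher and 0 that were lower in T169A, against 5.2% of all autosomal genes each way. Col1a2, a collagen of fibroblasts, had 6.58, 4.92 and 3.56 CPM in T169A and 2.00, 2.60 and 3.27 CPM in B6 (adjusted p = 0.475), and Lum had no count in any of the 6 libraries. The summed level of the 16 listed markers was 160 to 183 CPM in T169A and 131 to 179 CPM in B6, most of it from Igfbp4. The part of stromal cells in the Thbs2 difference was not tested, and in bulk RNA more cells of a type and more RNA per cell cannot be told apart.

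The called genes lay on 12 chromosomes. Chromosome 13, which carries Ripk1, held 1 of them, Tgfbi. None of the 42 tested genes within 5 Mb of Ripk1 was called, where 0.177% of all autosomal genes were, so the lack of calls there is near that share. Bodies of 6 called genes (Cx3cr1, Wdfy1, Mtus2, Col18a1, Cyp51 and Gpr146) overlap another annotated gene that was tested, and the strand setting of the counting is not given, so reads of such pairs may be mixed. None of these partners was called; Akap9, the partner of Cyp51, averaged 38.2 CPM in T169A and 46.4 CPM in B6 (-0.28 ± 0.30, adjusted p = 0.877).

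Most of the 22 genes differed in the same direction without LPS and with LPS/5z7. The group means of those conditions come from other libraries, but all 18 libraries share one estimate of the spread in the fit, so the 3 sets of calls are not independent. The fold change had the same sign in 21 of 22 genes in unstimulated cells and in 22 of 22 with LPS/5z7. The share of all autosomal genes with the same sign was not counted, so these counts have no background beside them. In unstimulated cells 15 of the 22 were called, where 0.177% of autosomal genes were called (22 genes, 5 or 0.0403% higher and 17 or 0.137% lower). With LPS/5z7 13 of the 22 were called, where 0.113% were (14 genes, 3 or 0.0242% higher and 11 or 0.0886% lower). A set of 10 genes was called in all 3 conditions, 5 in unstimulated cells and after LPS, 3 with and without 5z7 after LPS, and 4 after LPS alone. The sample titles give the same letters to the 3 treatments of a genotype, so libraries of different treatments may share a source.

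The 5 genes called without stimulus and after LPS, but not with LPS/5z7, were H2-M2, Vill, F11r, Gm15446 and Gm43305. In unstimulated cells H2-M2 stood at 2.98 CPM in T169A and 6.11 CPM in B6, a log2 fold change of -1.04 ± 0.19 (adjusted p = 0.0222). Slc7a2, Gm5345 and Lrmda were called after LPS and with LPS/5z7. Slc7a2 had nearly the same difference with LPS/5z7, at 82.2 ± 6.58 CPM in T169A and 168 ± 9.56 CPM in B6 (-1.03 ± 0.17, adjusted p = 0.00981), and -0.38 ± 0.21 in unstimulated cells, where its level was 3.51 CPM in T169A and 4.49 CPM in B6. Cyp51, Eya1, Gpr146 and Thbs2 were called after LPS alone. Cyp51 had -0.28 ± 0.09 in unstimulated cells (adjusted p = 0.461) and -0.34 ± 0.09 with LPS/5z7 (adjusted p = 0.258).

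**Figure D4:**
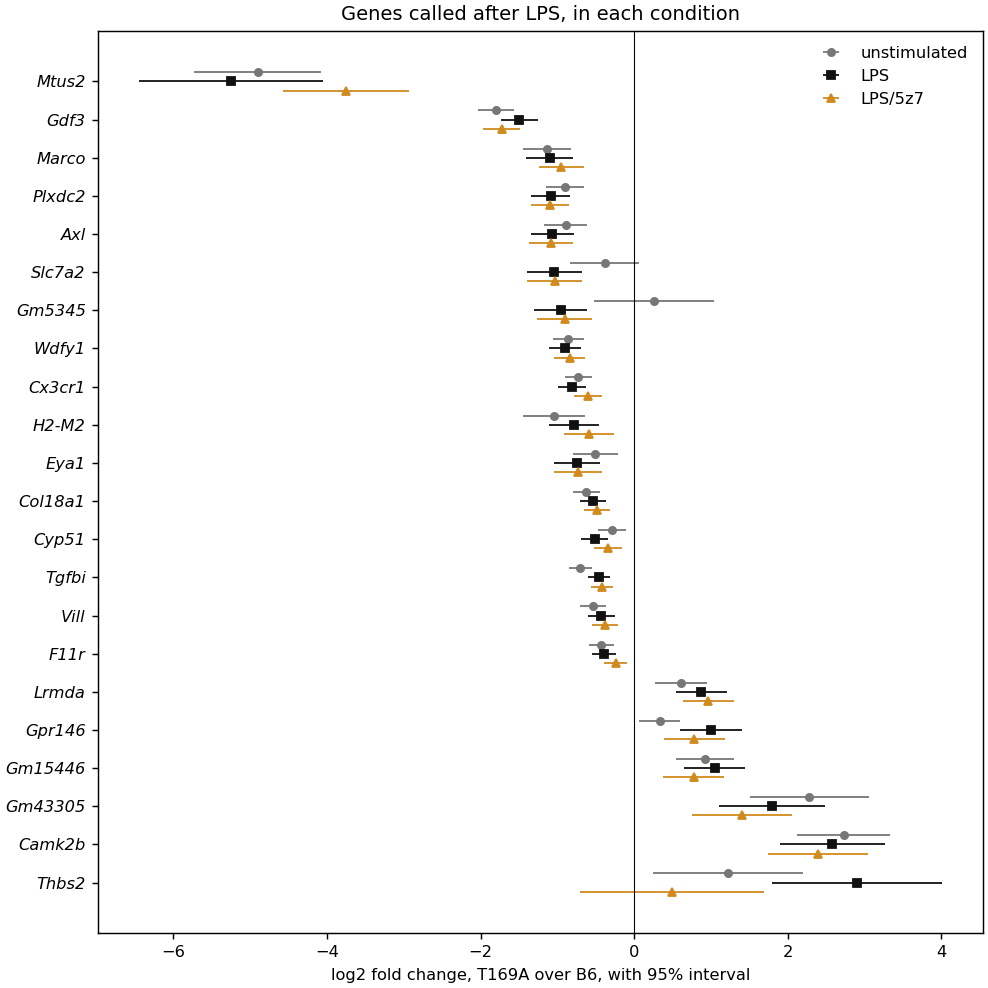
Log2 fold change, T169A over B6, of the 22 genes called after LPS, with 95% intervals, in unstimulated cells (grey circles), after LPS (black squares) and with LPS/5z7 (orange triangles). The 3 symbols lie on the same side of 0 for all genes except Gm5345, which was 0.26 ± 0.37 in unstimulated cells.

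Whether LPS acted differently in the genotypes was tested directly, as the LPS effect in T169A minus that in B6. No autosomal gene was called (0% of those tested, edgeR quasi-likelihood test, smallest adjusted p = 0.916), 398 had an unadjusted p under 0.05, and DESeq2 called none either (smallest adjusted p = 0.0577). The median SE of this difference was 0.22 on the log2 scale. The 4 genes called after LPS alone are thus not shown to respond differently, with Cyp51 at -0.23 ± 0.12, for example. Of the 22 genes called after LPS, 5 had an unadjusted p under 0.05 for this difference, all with an adjusted p of 0.916. They were Gm5345 (-1.22 ± 0.41), Gpr146 (0.67 ± 0.23), Tgfbi (0.24 ± 0.10), Slc7a2 (-0.66 ± 0.27) and Thbs2 (1.68 ± 0.75). The gene with the smallest p, chosen after its values were seen, was Tarm1, a receptor of myeloid cells, at 42.6 ± 6.15 CPM in T169A and 55.5 ± 4.57 CPM in B6 after LPS. In unstimulated cells it stood at 0.649 ± 0.154 CPM in T169A and 1.81 ± 0.151 CPM in B6, and its LPS effect differed by 1.10 ± 0.24.

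Most tested genes of the inflammatory programme differed by less than 2-fold between the genotypes after LPS. Across 9 lists, from TNF and TLR4 signalling to cytokines and interferon genes, 266 autosomal genes were tested. None was called in the main fit (edgeR, smallest adjusted p = 0.357, for Mmp14), where 0.177% of all autosomal genes were, so the lack of calls is near that share. An unadjusted p under 0.05 was reached by 13 of them (4.89%), and the groups did not overlap for 25 (9.40%), against 5.53% and 10.4% of all autosomal genes. The 95% interval lay within 2-fold either way for 257 of the 266. In a fit with a term for depth class, described below, 8 genes of these lists were called.

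Among the cytokines, Tnf had 4029, 4431 and 4767 CPM in T169A libraries 11, 14 and 17, against 4667, 4806 and 5368 CPM in B6 libraries 2, 5 and 8 (-0.17 ± 0.19). Il1b, the interleukin-1 beta gene, stood at 7646 ± 651 CPM in T169A and 7962 ± 918 CPM in B6 (-0.06 ± 0.22), and Il1a at 2457 and 2663 CPM in T169A and B6 (-0.12 ± 0.22). Il6 had the largest difference of the cytokines in the fixed set, with 73.8, 48.7 and 49.0 CPM in T169A and 86.3, 87.2 and 66.9 CPM in B6 (-0.49 ± 0.27, adjusted p = 0.876); the groups overlapped. Il12b, a subunit of interleukin-12, had 255.5, 231 and 247 CPM in T169A and 325, 329 and 266.5 CPM in B6. Its groups did not overlap, but the difference of -0.33 ± 0.15 did not pass the test (adjusted p = 0.876). Il10, an anti-inflammatory cytokine, had 0.19 ± 0.17. Of 26 cytokine genes tested 13 were above and 13 below 0.

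Chemokines and effectors also had no call in the main fit, where 0.177% of all autosomal genes were called. Cxcl10, a chemokine for T cells, stood at 4432 ± 424 CPM in T169A and 4985 ± 307 CPM in B6 (-0.17 ± 0.24), and Ccl5 at 1503.5 and 1573 CPM in T169A and B6 (-0.07 ± 0.29). The enzyme genes Nos2 and Ptgs2, which make nitric oxide and prostaglandins, had -0.30 ± 0.15 and -0.13 ± 0.22. Saa3, an acute phase protein, had 0.15 ± 0.36, and Lcn2, a protein that binds bacterial iron carriers, had 0.47 ± 0.15 with 23.2, 23.9 and 22.4 CPM in T169A and 15.1, 16.6 and 18.7 CPM in B6 (adjusted p = 0.459). The 19 chemokine and 26 effector genes tested had medians of -0.05 and -0.05. An unadjusted p under 0.05 was reached by 0 of the 19 and 6 of the 26, against 5.53% of all autosomal genes. The groups did not overlap for 1 effector gene that was higher and 4 that were lower in T169A, against 5.2% of all autosomal genes each way. The summed level of the effector list was 11700 to 13043 CPM in T169A and 13467 to 13538 CPM in B6.

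Signalling and cell death genes also showed no call, where 0.177% of all autosomal genes were called. The 26 tested genes of RIPK1 and TNF receptor complexes lay between -0.16 and 0.14, with a median of -0.06. The feedback inhibitors Nfkbia and Tnfaip3 had 0.09 ± 0.15 and -0.05 ± 0.23. The receptor gene Tlr4 had 49.2, 30.39 and 27.4 CPM in T169A and 38.0, 38.6 and 25.4 CPM in B6 (0.07 ± 0.26). Of the death executors, Ripk3 had 9.68, 12.1 and 13.5 CPM in T169A and 9.60, 9.57 and 8.47 CPM in B6 (0.34 ± 0.13). The groups did not overlap, yet the adjusted p was 0.747. Mlkl and Casp8 had -0.20 ± 0.16 and 0.02 ± 0.08.

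**Figure D5:**
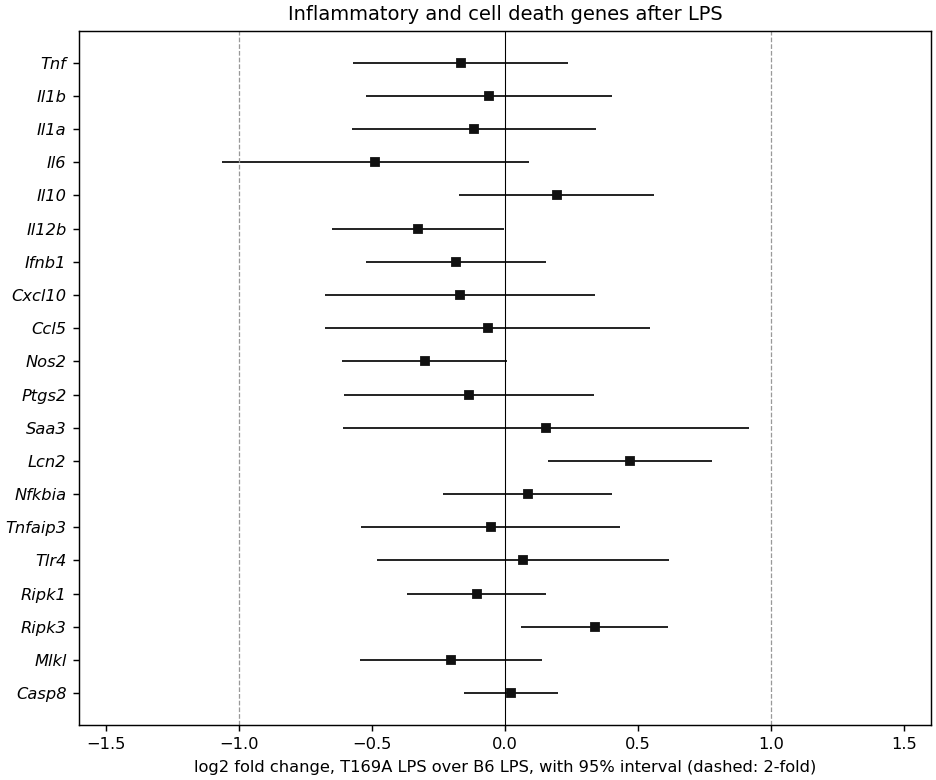
Log2 fold change, T169A LPS over B6 LPS, of 20 inflammatory and cell death genes, with 95% intervals and dashed lines at 2-fold. None was called; Il6 has the interval that reaches furthest below 0, from -1.06 to 0.09.

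Some lists leaned to one side without a call in the main fit, where 0.177% of all autosomal genes were called. Of all 12411 autosomal genes tested 6158 had a fold change below 0. Of 44 interferon-beta and interferon-stimulated genes 41 had a fold change below 0, with a median of -0.15. Rsad2, the antiviral enzyme viperin, stood at 3019 ± 1067 CPM in T169A and 3628 ± 273 CPM in B6, and Ifnb1 had 58.7, 53.2 and 45.2 CPM in T169A and 56.0, 62.8 and 60.01 CPM in B6. The groups did not overlap for 2 of the 44, both lower in T169A, against 5.2% of all autosomal genes, so the share is near the background. The median was -0.32 without T169A library 11 and -0.08 without T169A library 17. Of 75 nuclear oxidative phosphorylation genes 69 were above 0, with a median of 0.17; it was 0.27 without T169A library 11, 0.26 without B6 library 8, 0.10 without B6 library 2 and 0.08 without T169A library 17. Of 42 immediate early genes of the MAP kinase and SRF pathways 29 were above 0, with a median of 0.12, which was 0.05 without B6 library 5, 0.08 without T169A library 17 and 0.19 without B6 library 8. Other lists leaned as well. Of 74 cytosolic ribosomal protein genes 67 were above 0, with a median of 0.09, but 38 were below 0 without T169A library 17. Of 20 alternative activation and PPARG target genes 16 were above 0. Of 30 lysosome and cathepsin genes 21 were above 0.

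The LPS libraries fell into 2 classes of depth that cut across the genotypes. T169A library 11 and B6 libraries 2 and 5 held 29508486, 30021493 and 30425934 counts, while T169A libraries 14 and 17 and B6 library 8 held 18233819, 17990688 and 15466988 counts. Libraries of one class were alike: pairs 14 with 17 and 2 with 5 had a chi-square per degree of freedom of 7.55 and 5.90, where sampling of reads by itself gives about 1, and pairs of one genotype across the classes had 22.6 to 51.9. No 2 libraries were alike enough to be one library deposited again. Within T169A and B6, 360 and 412 autosomal genes differed by over 2-fold between the classes. Across 7320 genes of at least 10 CPM the difference between classes had a Pearson correlation of 0.754 between T169A and B6; genes are not independent replicates.

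A fit of the 6 LPS libraries with a term for depth class, chosen after seeing the data, called 72 autosomal genes, 24 higher and 48 lower, including 21 of the 22. The remaining gene, Thbs2, did not pass the expression filter for these 6 libraries and was not tested. Without the depth term the same 6 libraries gave 7 calls. The genes added by the term included 8 of the 266 inflammatory list genes of the main fit, where 72 of 11508 autosomal genes tested were called in all. Il6 and Tnfsf15, a TNF family cytokine, had -0.33 ± 0.07 and -0.34 ± 0.07 (edgeR adjusted p = 0.0256 and 0.0236), and the neutrophil chemoattractants Cxcl2 and Cxcl3 had -0.29 ± 0.06 and -0.34 ± 0.08 (adjusted p = 0.0255 and 0.0487). Slc7a11, a cystine transporter, and Mmp14, a membrane metalloproteinase, were also lower, while Lcn2 (0.45 ± 0.09) and Ier3 (0.35 ± 0.07), an immediate early gene, were higher. Of the cholesterol list 6 genes were then lower, among them Cyp51 (-0.50 ± 0.07), Sc5d (-0.36 ± 0.08), Srebf2 (-0.29 ± 0.06) and Stard4 (-0.36 ± 0.08), a sterol transfer protein. Of the stromal markers Col1a2 and Tagln were higher, at 1.10 ± 0.23 and 0.998 ± 0.201. None of the 44 listed interferon genes was called, and the median of that list was -0.11, but Oas1g, an interferon-induced oligoadenylate synthetase outside the list, was lower (-0.62 ± 0.10, adjusted p = 0.00812; named after its value was seen). The medians of the oxidative phosphorylation and immediate early lists were 0.06 and 0.03 in this fit. The fit has 3 residual degrees of freedom, and what the depth classes stand for was not tested.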

How the data were processed

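RNA was extracted with TRIzol and sequenced from directional TruSeq libraries, per the labels' protocols. The deposited values are unnormalized counts per gene; the submitters' processing notes name GRCm39, featureCounts, STAR and Trim Galore, but versions, strand setting and the treatment of multimapping reads are not given in the sources used here. Of 56953 gene IDs, 52029 matched GENCODE M21 (GRCm38), which supplied symbols and chromosomes. Columns name a group and a running number, so they were tied to groups, not to single samples; no column was left out.

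Counts were fitted with edgeR 4.0.16 (R 4.3.3): filterByExpr by group, TMM scaling, and a robust quasi-likelihood model with 6 group means over 18 libraries and 12 residual degrees of freedom. Benjamini-Hochberg adjustment ran over all 13068 genes, with a threshold of 0.05. The SE was taken as the size of the log2 fold change over root F. Counting intervals and the floor of 3 counts cover counting error only. The same functions were tested on simulated data. Named genes are all called autosomal genes, the called and the 2 most abundant uncalled members of gene lists, and a fixed set. The fixed set held inflammatory and cell death genes, and also Gdf3, Axl, Marco, Cx3cr1, Nnt and Wdfy1. Genes added by the depth term, those with an unadjusted difference of the LPS effect, Colec12, the sterol, stromal and Tarm1 examples were chosen after their values were seen. The comparison, members and lists were chosen with earlier results of these data known. Alternatives included DESeq2 1.42.0, other scalings and filters, fits on fewer libraries, each library left out, and a depth term. Some list members are counted but not reported by name here. Figures used matplotlib 3.10.9.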

Additional observations from a re-analysis of the deposited data

Results flagged for a closer look

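Genes of the X and Y chromosomes, outside the autosomal comparison, carried a signal that separated the genotypes in every LPS library. Xist averaged 0.375 CPM in T169A LPS and 1085 CPM in B6 LPS. Ddx3y, a Y-linked RNA helicase, averaged 96.1 CPM in T169A and 0.0133 CPM in B6, and the Y-linked translation factor gene Eif2s3y averaged 87.1 CPM in T169A and 0.0392 CPM in B6. The Y-linked demethylase genes Kdm5d and Uty averaged 22.5 and 19.4 CPM in T169A, and 0 and 0.0390 CPM in B6. Of 382 X-linked genes tested, Xist and Eif2s3x were called (edgeR), the second at 19.3 CPM in T169A and 33.3 CPM in B6. Groups of 3 libraries are too small for the test of single outlying samples.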

How the results depend on the processing

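The count of 22 called autosomal genes (6 higher, 16 lower) became 7 (0 higher, 7 lower) in a fit of the 6 LPS libraries alone, 46 (13 and 33) with DESeq2, which kept all 22, 28 (10 and 18) with no filter, 10 (4 and 6) with a minimum of 2-fold, and 72 (24 and 48) with the depth term. With one library left out at a time it ranged from 10 to 24 (1 to 7 higher, 9 to 18 lower): 11 without T169A library 14, 13 without T169A library 17, 12 without B6 library 2 and 10 without B6 library 5. Gdf3, Cx3cr1, Wdfy1, Mtus2, Plxdc2, Axl, Marco, Col18a1, Tgfbi and Camk2b were called in all 6 of these fits; the other 12 were lost in at least 3, and F11r in all 6. The first 7 are those called from the LPS libraries alone. Scaling moved the median of all genes by less than 0.1. Of genes not called, Casp8 turned to -0.002 with no filter, and with one library left out Casp8 ranged from -0.046 to 0.066, Il1b from -0.127 to 0.036, Tlr4 from -0.245 to 0.224 and Ccl5 from -0.125 to 0.005 (the reversals came without T169A library 11 or B6 library 8: Casp8 -0.046, Il1b 0.011 and 0.036, Tlr4 -0.245 and -0.096, Ccl5 0.005); the cause was not tested. Thbs2 rests on 42 counts in T169A and 6 in B6, and Mtus2 on 1 and 57.

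The sample letters differ between the genotypes and the columns carry none, so the genotypes share no pairs and the planned fit with the letter was not run. With a replicate block made of neighbouring running numbers, 0 genes were called for the difference of the LPS effect, as without it (673 at an unadjusted p under 0.05). Of 18 pairs of libraries in the same set 16 had deviations from their group means correlated over 0.1 (-0.065 to 0.748). The median was 0.37 for these pairs and -0.24 for pairs of different sets. Yet B6 LPS library 2 and B6 unstimulated library 4, of different sets, had 0.783. The running numbers are therefore not shown to mark pairs.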
